A study of Homo sapiens with 30 samples.

Results

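The comparison described here is that of C4-2-tet-shRB cells given the LSD1 inhibitor GSK2879552 with the same cells given DMSO, both without doxycycline. It rests on 4 of the 30 sequenced samples, chosen by their labels: 2 libraries of cells given 10 µM GSK2879552 for 24 h, and 2 libraries of cells named for DMSO in their titles, whose treatment label reads untreated. C4-2 is a castration-resistant prostate cancer line derived from LNCaP, and the tet-shRB line carries a doxycycline-inducible hairpin against RB1 that was not induced in these 4 samples. All 4 were grown in RPMI medium with 5% charcoal-stripped serum, which is low in androgen. Cells given both doxycycline (0.05 µg/ml for 3 days) and GSK2879552, their doxycycline and DMSO counterparts, LNCaP cells given 1 µM GSK2879552 for 2 days and LNCaP cells given vehicle are set beside it. The remaining samples of the series are other C4-2-tet-shRB cells and VCaP cells. These C4-2-tet-shRB cells had 10 nM dihydrotestosterone (DHT) for 24 h or vehicle, without doxycycline or with 0.05 µg/ml of it for 3 or 30 days. They were grown in 8% charcoal-stripped and 2% fetal bovine serum. The VCaP cells had 20 nM siRNA against RB1 or a non-targeting control for 2 days, in 10% fetal bovine serum by the labels. The labels do not say whether libraries of a group came from separate cultures or whether the line is a single clone, so p-values measure the spread between these libraries, which may be technical.

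LSD1, encoded by KDM1A, is a flavin-dependent demethylase that removes methyl groups from histone lysines. In the CoREST complex it works with HDAC1 or HDAC2 and is recruited by zinc-finger repressors of the SNAI, GFI and ZEB families, so it is best known for holding genes silent. GSK2879552 inactivates the enzyme by binding covalently to its flavin cofactor.

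Levels are CPM, counts scaled to a common library size, after TMM scaling, which corrects for differences in library size and composition. Changes are log2 fold changes of GSK2879552 over DMSO ± SE from edgeR's quasi-likelihood test, fitted on the 8 C4-2 libraries with or without doxycycline. Calls required a Benjamini-Hochberg adjusted p below 0.05 across 18423 genes tested. The libraries held 21886244 and 16226452 counts with GSK2879552 and 14515932 and 15736773 counts with DMSO. The libraries given the inhibitor differed from each other more than any other pair of the table, with 126 of 11977 genes over 1.5-fold apart, against 15 of 11411 between the DMSO libraries. The 11977 and 11411 genes were limited to those whose summed reads reached 200. Without that limit, 1 called gene, FAM43B, had inhibitor libraries over 1.5-fold apart, at 1.38 and 2.13 CPM. Luminal prostate markers were abundant in all 4 libraries: before TMM scaling, KLK2 had 1351 and 1406 CPM with GSK2879552 and 1375 and 1306 CPM with DMSO, and TMPRSS2 had 1299 and 1279 CPM with GSK2879552 and 1174 and 1222 CPM with DMSO. Every basal and leukocyte marker was under 1 CPM, with TP63, KRT5 and CD3E at 0 counts in all 4 libraries. The 6 fibroblast markers summed to 41.9 and 52.0 CPM with GSK2879552 and 52.4 and 47.1 CPM with DMSO, nearly all of it COL1A1, and of 3 endothelial markers CDH5 and KDR were at 0 counts while VWF had 6.31 and 6.59 CPM with GSK2879552 and 8.68 and 6.55 CPM with DMSO.

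RB1 transcripts were present in both groups. RB1 stood at 32.7 and 22.1 CPM with GSK2879552 and at 23.4 and 26.1 CPM with DMSO, so the groups overlapped (log2 0.16 ± 0.15, adjusted p = 0.716). Where doxycycline had been given, it stood at 5.84 and 6.74 CPM with GSK2879552 and 4.64 and 6.24 CPM with DMSO. KDM1A mRNA, which the inhibitor is not made to lower, was at 112 and 105 CPM with GSK2879552 and 106 and 108 CPM with DMSO (log2 0.02 ± 0.07, adjusted p = 0.926). Neither gene was called.

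Few genes were called, and most of them were higher with GSK2879552. With 2 libraries a group, a gene without a call is not shown to be unchanged. The number called also depended strongly on single libraries, as the last section gives. GSK2879552 changed 125 genes of 18423 (0.678%): 114 went up (0.619%) and 11 went down (0.0597%). The change reached 2-fold for 30 of the rises and 1 of the falls. In each of the 125 the libraries of the groups did not overlap, which also held for 3470 genes that were higher and 3398 that were lower among all tested. In bulk RNA, a smaller number of cells of one kind and less RNA per cell cannot be told apart. The median rise of a called gene was 0.71 on the log2 scale and the median fall -0.56, while the median over all genes tested was 0.00. Before adjustment, p was under 0.05 for 1233 higher and 983 lower genes. Of the 114 genes that rose, 13 lie on the mitochondrial genome, and the 101 nuclear ones and these are described separately.

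**Figure D1:**
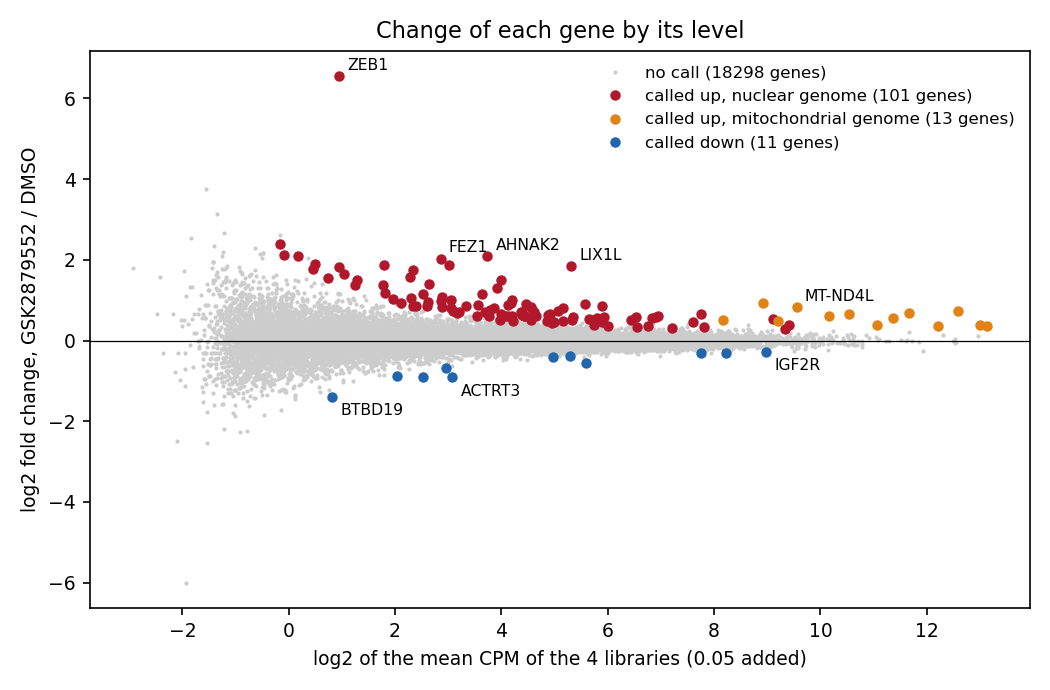
Log2 fold change of GSK2879552 over DMSO without doxycycline against the log2 mean level of each of 18423 genes. Red points are 101 nuclear genes called up, orange points 13 mitochondrial genes called up, blue points 11 genes called down, and grey points genes without a call. ZEB1 stands apart at 6.56, and the mitochondrial genes sit at the high end of the level axis.

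ZEB1 had by far the largest rise among called genes. This zinc-finger repressor silences epithelial genes such as CDH1, drives the epithelial-mesenchymal transition, and recruits CtBP and LSD1 complexes to its targets. It was counted 88 and 54 times with GSK2879552 and 0 and 1 times with DMSO, or 4.05 and 3.38 CPM against 0.00 and 0.06 CPM. ZEB1 transcripts were thus nearly undetected without the inhibitor, in both DMSO libraries, and the fitted log2 change of 6.56 ± 0.61 (adjusted p = 1.52e-05) rests on that single read. The ratio of summed counts, 142 with GSK2879552 and 1 with DMSO, came to 113 at equal depth, with an exact 95% interval of 19.9 to 4483 that covers counting error only. With doxycycline the counts were 73 and 91 with GSK2879552 and 3 and 2 with DMSO, a ratio of 39.6 (16.6 to 124). In LNCaP cells, 29 reads were counted with GSK2879552 and 0 with vehicle, a ratio of 10.4 when the vehicle is set to a floor of 3 counts. The exact 95% interval for 29 against 0 reads has its lower limit at 7.71, so the rise may be below 10.4-fold. Its antisense neighbour ZEB1-AS1 had 7.96 and 6.94 CPM with GSK2879552 and 6.97 and 6.04 CPM with DMSO and was not called (log2 0.21, adjusted p = 0.624). CDH1, encoding E-cadherin, had 958 and 927 CPM with GSK2879552 and 908 and 946 CPM with DMSO (log2 0.02, adjusted p = 0.905).

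RefSeq lists 7 start sites for ZEB1. The 250 bases before the first of these and before the single start of SCN4B, another of the largest rises, are shown because both hold CAGGTG, the E-box letters that ZEB and SNAI factors bind, on the strand shown. Capitals mark it, and it begins 57 bases before the ZEB1 start and 122 bases before that of SCN4B. Of the other 6 ZEB1 windows, 1 holds the letters or their reverse complement, at positions -242 and -85 from its start. Most of the other largest rises searched lack them. No such window of AHNAK2, FEZ1, LIX1L, NAP1L3, ATP8B3, STX2 or AKAP12 holds the letters on either strand. A window of ILDR2 does, at positions -169 and -163. The ZEB1 window is chr10:31318167-31318416 on the plus strand and the SCN4B window chr11:118145434-118145683 on the minus strand (GRCh38.p14).
ZEB1: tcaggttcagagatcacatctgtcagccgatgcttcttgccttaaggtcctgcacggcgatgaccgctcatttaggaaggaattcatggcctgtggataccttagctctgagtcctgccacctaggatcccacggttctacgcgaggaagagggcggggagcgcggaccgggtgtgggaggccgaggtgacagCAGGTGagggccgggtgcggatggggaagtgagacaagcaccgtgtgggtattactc
SCN4B: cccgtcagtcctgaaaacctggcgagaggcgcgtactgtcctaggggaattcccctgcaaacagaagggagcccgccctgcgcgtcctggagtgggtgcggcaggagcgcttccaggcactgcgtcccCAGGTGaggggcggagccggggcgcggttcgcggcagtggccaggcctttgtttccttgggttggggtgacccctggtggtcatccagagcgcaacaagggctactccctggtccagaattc
Over windows reaching from 250 bases before to 50 bases after a start, CAGGTG or its reverse complement CACCTG was present in 24 of 104 windows of called-up genes (23.1%), 3 of 13 of called-down genes (23.1%) and 2923 of 15202 of all genes tested (19.2%). AAATCA or TGATTT, the core that GFI1 binds, was present in 7 of 104 (6.73%), 2 of 13 (15.4%) and 1212 of 15202 (7.97%). GGCGGGAA or TTCCCGCC, a form of the E2F site, was present in 1 of 104 (0.962%), 0 of 13 and 702 of 15202 (4.62%). TGATGCAA or TTGCATCA, read by ATF4 and C/EBP dimers, was present in 0 of 104, 0 of 13 and 84 of 15202 (0.553%). The windows come from 71 of the 114 genes that rose, 9 of the 11 that fell and 10390 of all genes tested, and the shares are descriptions of letters without a test.

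The epithelial-mesenchymal list held 4 called rises among 28 members tested and no called fall, against 0.619% of all genes called up, and its median was 0.03, against 0.00 over all genes. Besides ZEB1 these were OVOL2 and OVOL1, zinc-finger repressors that maintain the epithelial state and act against ZEB1, and VIM, the intermediate filament of mesenchymal cells. OVOL2 had 20.0 and 22.8 CPM with GSK2879552 and 8.28 and 8.90 CPM with DMSO (log2 1.31 ± 0.12, adjusted p = 1.52e-05). OVOL1 had 40.7 and 50.7 CPM with GSK2879552 and 25.9 and 26.3 CPM with DMSO (log2 0.80 ± 0.10, adjusted p = 0.000512). VIM had 26.0 and 26.4 CPM with GSK2879552 and 17.3 CPM in both DMSO libraries (log2 0.60 ± 0.10, adjusted p = 0.00567). Genes of both the epithelial and the mesenchymal programme rose in the same libraries. The VIM call ended without DMSO replicate 1 or 2, while ZEB1, OVOL1 and OVOL2 were called under all 15 alternative settings tried.

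The 15 largest rises among called genes whose average log2 CPM reached 1, a limit that ZEB1 itself misses, were of genes with low but measurable levels in DMSO cells. AHNAK2, a large scaffold protein of the AHNAK family, had 20.4 and 22.5 CPM with GSK2879552 and 5.52 and 4.58 CPM with DMSO. Its 4.24-fold rise (log2 2.09 ± 0.14, adjusted p = 3.01e-07) far exceeded the spread between replicates. LIX1L had the smallest p of the comparison, with 64.3 and 59.0 CPM under GSK2879552 and 18.6 and 15.9 CPM under DMSO (log2 1.84 ± 0.10, adjusted p = 1.67e-08). FEZ1, an adaptor for kinesin transport in axons, had 10.99 and 12.1 CPM with GSK2879552 and 3.24 and 2.42 CPM with DMSO (log2 2.03 ± 0.18). SCN4B, an auxiliary subunit of voltage-gated sodium channels, had 12.2 and 13.01 CPM with GSK2879552 and 3.31 and 3.495 CPM with DMSO (log2 1.88 ± 0.16). In both genes each library given the inhibitor stood well above either DMSO library. NAP1L3, of the nucleosome assembly protein family, rose by 1.87 ± 0.22, ATP8B3, a phospholipid flippase, by 1.76 ± 0.21, and the kinase gene MAP3K15 by 1.58 ± 0.20. STX2, a syntaxin of membrane fusion, had 25.0 and 21.8 CPM with GSK2879552 and 8.07 and 8.39 CPM with DMSO (log2 1.51 ± 0.13). NRG3, a neuregulin that binds the receptor ERBB4, rose by 1.497 ± 0.25, ILDR2, an immunoglobulin-domain membrane protein, by 1.41 ± 0.18, and AKAP12, which anchors protein kinase A, by 1.16 ± 0.16. ETNPPL, which breaks down phosphoethanolamine, rose by 1.18 ± 0.22. The non-coding RASSF8-AS1 and RP11-412D9.4 rose by 1.38 ± 0.27 and 1.37 ± 0.21. The strand setting of the counts is not given in the sources used here, so values of antisense genes are uncertain. Adjusted p-values of the genes in this paragraph were 0.0196 or lower, and in each the libraries of the groups did not overlap. The calls of NRG3, RASSF8-AS1 and ETNPPL ended without DMSO replicate 1 or 2, and that of RP11-412D9.4 without DMSO replicate 1.

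**Figure D2:**
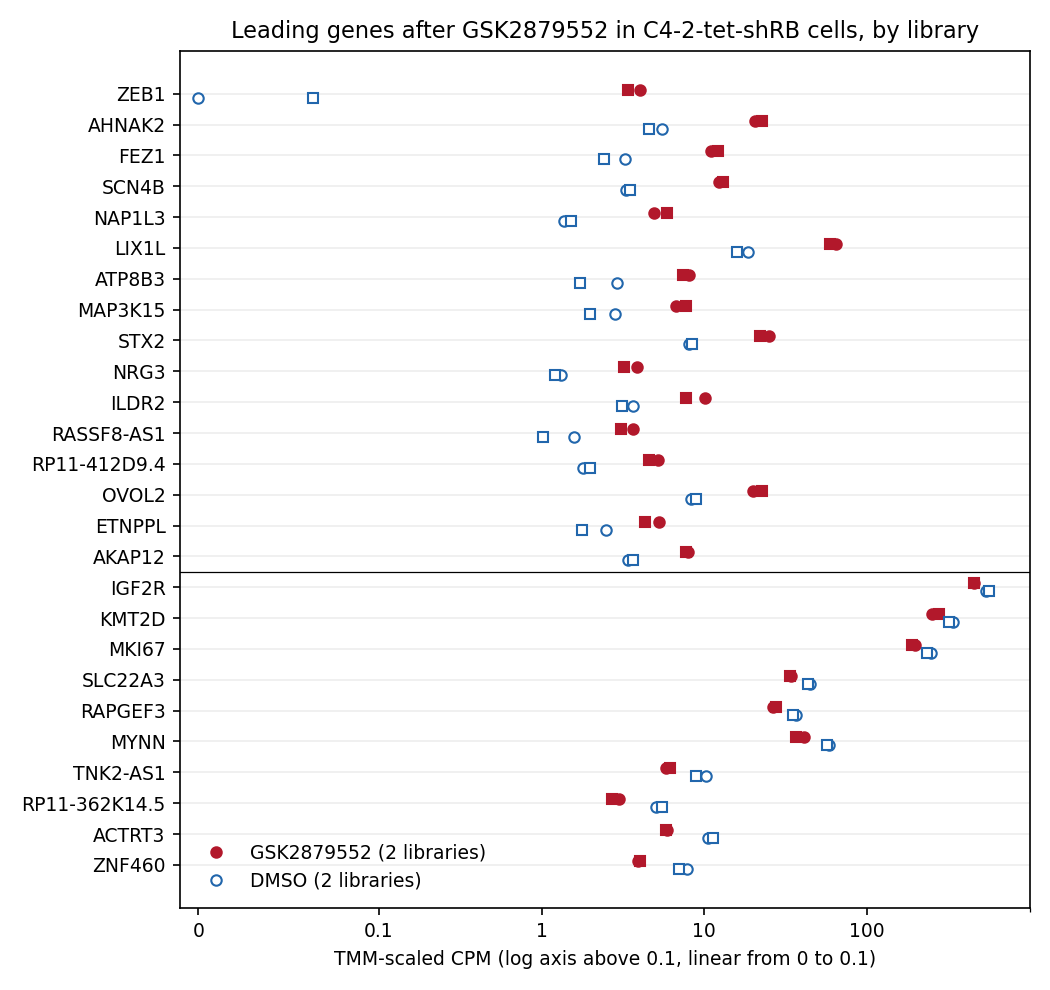
TMM-scaled CPM of each library for ZEB1 and for the 15 largest rises and all 10 falls of called genes whose average log2 CPM reached 1. Filled red symbols are the GSK2879552 libraries and open blue symbols the DMSO libraries (circles replicate 1, squares replicate 2), and in every gene drawn the groups do not overlap.

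Only 11 genes fell. ACTRT3, encoding an actin-related protein, had 5.89 and 5.82 CPM with GSK2879552 and 10.6 and 11.3 CPM with DMSO (log2 -0.90 ± 0.13, adjusted p = 0.00173). Among the falls named by the rule it was the only one called under all 15 alternatives. MYNN, a zinc-finger protein of the BTB family, had 41.2 and 36.8 CPM with GSK2879552 and 58.3 and 56.9 CPM with DMSO (log2 -0.56 ± 0.08, adjusted p = 0.0018). ACTRT3 and MYNN lie on chromosome 3 with 1 gene, a transfer RNA, between them in RefSeq and are transcribed away from each other. Both also fell with doxycycline (log2 -0.77 ± 0.12 and -0.63 ± 0.08, adjusted p = 0.00214 and 0.000246). Among the 100 called genes found in RefSeq, the only other near neighbours called together were S100A10 and S100A11 on chromosome 1, S100 family proteins with 2 genes between them, which rose by 1.16 ± 0.13 and 0.58 ± 0.08.

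The 250 bases before the start of ACTRT3 and before the first of 2 starts listed for MYNN are shown, since these neighbours fell together. The windows are chr3:169769562-169769811 on the minus strand and chr3:169773146-169773395 on the plus strand (GRCh38.p14). CAGGTG, in capitals, begins 199 bases before the ACTRT3 start, and none of the motifs searched is in the MYNN window shown. The window of the other MYNN start holds CAGGTG at position -237 from that start, and also the core that GFI1 binds.
ACTRT3: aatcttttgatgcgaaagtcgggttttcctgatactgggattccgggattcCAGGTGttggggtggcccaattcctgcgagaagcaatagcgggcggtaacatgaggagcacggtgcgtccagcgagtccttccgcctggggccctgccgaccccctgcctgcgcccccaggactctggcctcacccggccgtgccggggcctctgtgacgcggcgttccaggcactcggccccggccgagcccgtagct
MYNN: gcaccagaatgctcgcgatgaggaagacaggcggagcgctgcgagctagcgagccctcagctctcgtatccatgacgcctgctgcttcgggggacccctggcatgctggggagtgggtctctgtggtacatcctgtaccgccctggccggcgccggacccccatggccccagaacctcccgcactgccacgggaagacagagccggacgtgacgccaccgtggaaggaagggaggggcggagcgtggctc

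Of the other falls, ZNF460, a zinc-finger gene, had 3.91 and 4.003 CPM with GSK2879552 and 7.86 and 6.99 CPM with DMSO (log2 -0.91 ± 0.18, adjusted p = 0.0181). The non-coding RP11-362K14.5 fell by 0.89 ± 0.19 and TNK2-AS1 by 0.67 ± 0.14. BTBD19 was the single fall of 2-fold or more (log2 -1.39 ± 0.30, adjusted p = 0.0348), at 1.06 and 0.81 CPM with GSK2879552 and 2.07 and 2.92 CPM with DMSO, and is named after its value was seen because its level is below the limit used for the others. The rest were moderate falls of well-expressed genes. MKI67, the proliferation marker Ki-67, had 197 and 190 CPM with GSK2879552 and 247 and 234 CPM with DMSO (log2 -0.31 ± 0.06, adjusted p = 0.0205). KMT2D, a methyltransferase that marks active enhancers, had 252 and 278 CPM with GSK2879552 and 340 and 319 CPM with DMSO (log2 -0.31 ± 0.07, adjusted p = 0.0371). IGF2R, the receptor that clears IGF2, fell by 0.28 ± 0.06, SLC22A3, an organic cation transporter, by 0.39 ± 0.08 and RAPGEF3, an exchange factor activated by cyclic AMP, by 0.41 ± 0.09. The falls were less stable than the rises. The count of falls was 3 when only the 4 libraries compared were fitted, and it was 1 without DMSO replicate 1 and 2 without DMSO replicate 2. The calls of MKI67, KMT2D, IGF2R, SLC22A3, RAPGEF3, TNK2-AS1 and RP11-362K14.5 each ended in at least 7 of the 15 alternatives.

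The members of the complex that the inhibitor targets changed little at the mRNA level. Of the 22 genes tested in the LSD1-CoREST list, ZEB1 was the only one called, and the median was 0.02. Over all genes tested, 0.678% were called in either direction. RCOR1, the scaffold CoREST, had 69.5 and 65.7 CPM with GSK2879552 and 64.8 and 68.8 CPM with DMSO (log2 0.02 ± 0.07, adjusted p = 0.947). The deacetylases HDAC1 (log2 0.10 ± 0.06, adjusted p = 0.518) and HDAC2 (log2 0.03 ± 0.08, adjusted p = 0.922) had no call. GFI1, a repressor whose partnership with LSD1 is best known in blood cells, had 9.20 and 8.82 CPM with GSK2879552 and 6.897 and 6.99 CPM with DMSO (log2 0.38 ± 0.15, adjusted p = 0.326). Both GFI1 libraries with the inhibitor were above both with DMSO, without a call. The paralogue KDM1B had a log2 change of -0.11 ± 0.08 (adjusted p = 0.632). Of 12 tested genes known to be derepressed by LSD1 inhibitors in leukaemia and lung cancer lines, VIM was the only one called, with a median of 0.17. Of 33 histone lysine demethylases and methyltransferases, KMT2D was the only one called, with a median of -0.10.

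Androgen-regulated genes were mostly without a call. KLK3, which encodes the androgen-induced protease PSA, had 8227 and 8356 CPM with GSK2879552 and 7774 and 7594 CPM with DMSO. The KLK3 groups did not overlap, but the difference of 0.11 ± 0.05 on the log2 scale had an adjusted p of 0.405. Of 47 androgen-induced genes tested, 3 rose and none fell, with a median of 0.09, while 0.619% of all genes tested were called up. These were MPHOSPH9 (log2 0.53 ± 0.08), ALDH1A3, a retinaldehyde dehydrogenase (log2 0.47 ± 0.08), and PPAP2A, an older symbol of the lipid phosphatase PLPP1 (log2 0.28 ± 0.06). The calls of MPHOSPH9 and ALDH1A3 ended without DMSO replicate 1 (adjusted p = 0.183 and 0.266), and that of PPAP2A in 8 of 15 alternatives. None of 17 androgen-repressed genes was called by edgeR, while DESeq2 called 2 up. Without adjustment 5 of them were higher and 0 lower, and the median was 0.14, while 1233 of all 18423 genes were higher and 983 lower.
A second view came from genes that responded to DHT in these cells without doxycycline, in separate libraries. Of 467 tested genes at least 2-fold higher with DHT, 11 rose with GSK2879552 (2.36%, against 0.619% of all genes) and 0 fell, with a median of 0.07. They included AKAP12, B2M, ELOVL5, DUSP1, LOX, ALDH1A3 and PPAP2A, and also RNA5-8SP6 and CTD-2328D6.1, which are taken up below. Of 414 genes at least 2-fold lower with DHT, 4 rose (0.966%), namely ACBD7, CCL20, DEPTOR and FSCN1, and MKI67 fell, with a median of -0.02. These 4 are named after their values were seen.

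No gene of the cell cycle lists was called, although most members were slightly lower. Over all genes tested, 0.678% were called in either direction and 0.0597% down, so lists of this size may hold no call. MKI67, which is in neither list, was called down, as given above. Of 60 E2F-driven genes of the G1/S transition and replication, 0 passed edgeR's test and 1 fell by DESeq2. Without adjustment 0 were higher and 18 lower, the fold change was positive in 13, and the median was -0.11. Over all 18423 genes tested, 1233 were higher and 983 lower without adjustment, and the fold change was positive in 9055. E2F1 had 47.8 and 50.2 CPM with GSK2879552 and 54.3 and 53.2 CPM with DMSO (log2 -0.14 ± 0.08, adjusted p = 0.529). Of 53 G2/M and mitotic genes, 0 passed edgeR's test and 0 DESeq2's. Without adjustment 12 were lower and 0 higher, and the median was -0.12. Both GSK2879552 libraries were below both DMSO libraries in 23 of these 53 genes and above them in 0, while over all genes 3398 were lower and 3470 higher in this sense. With doxycycline the medians were -0.10 for both lists, with 0 calls by edgeR and by DESeq2. There voom called 5 E2F-driven genes and 1 G2/M gene down, and 170 genes down over all tested. The GSK2879552 libraries themselves differed in these lists: replicate 1 over replicate 2 had a median log2 of 0.07 over the E2F list and 0.14 over the G2/M list. The DMSO libraries differed by 0.00 and -0.02 in the same sense.

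Among genes of interferon and antigen presentation, 3 rose. IFI6, an interferon-induced mitochondrial protein, had 22.6 and 26.5 CPM with GSK2879552 and 12.3 and 12.01 CPM with DMSO (log2 1.01 ± 0.12, adjusted p = 0.000222). IFIT1, which binds viral RNA, had 3.40 and 2.44 CPM with GSK2879552 and 1.03 and 0.64 CPM with DMSO (log2 1.84 ± 0.33, adjusted p = 0.0109), and its call ended without DMSO replicate 1 or 2. Of 38 interferon-stimulated genes tested these were the 2 called by edgeR, DESeq2 called 1, and the median was 0.11. By edgeR, 0.619% of all genes tested were called up. B2M, the light chain of MHC class I, had 156 and 140 CPM with GSK2879552 and 89.9 and 104 CPM with DMSO (log2 0.62 ± 0.08, adjusted p = 0.000404). It was the only one called of 17 genes of class I presentation, whose median was -0.04.

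Other lists gave 1 or 2 genes called by edgeR, while 0.619% of all genes tested were called up. ELOVL5, which elongates polyunsaturated fatty acids, rose by 0.65 ± 0.09, with 280 and 247 CPM under GSK2879552 and 152 and 183 CPM under DMSO, as the only one called of 23 SREBP1 targets. HSD17B11, a steroid dehydrogenase, rose by 1.06 ± 0.18 as the only one called of 15 steroid metabolism enzymes. LOX, the collagen cross-linking lysyl oxidase, rose by 0.72 ± 0.15 as the only one of 35 hypoxia and glycolysis genes called by edgeR, while DESeq2 called 4 up. With doxycycline, edgeR called 15 of these 35 genes up and DESeq2 14. Over all genes tested, edgeR called 229 up with doxycycline (1.24%) and DESeq2 175. SP5, a target of WNT signalling, rose by 1.78 ± 0.36 as the only one of 32 NOTCH and WNT pathway genes called by edgeR, with 0 called by DESeq2. DUSP1, a phosphatase of MAP kinases, rose by 0.60 ± 0.09 and the stress-induced factor ATF3 by 0.48 ± 0.09, the 2 called of 26 immediate early genes. The calls of HSD17B11, ATF3 and SP5 ended without DMSO replicate 1 or 2, and those of LOX and DUSP1 without DMSO replicate 1. The SP5 call also ended with voom and the ATF3 call in the 4 libraries alone. None of the 77 cytosolic ribosomal protein genes tested by edgeR was called, DESeq2 called 1 up, and 18 were higher and 0 lower without adjustment. Without adjustment 1233 of all 18423 genes were higher and 983 lower. Of 6 neuroendocrine genes tested, 0 were called by edgeR and 0 by DESeq2, and 1 was higher and 0 lower without adjustment.

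**Figure D3:**
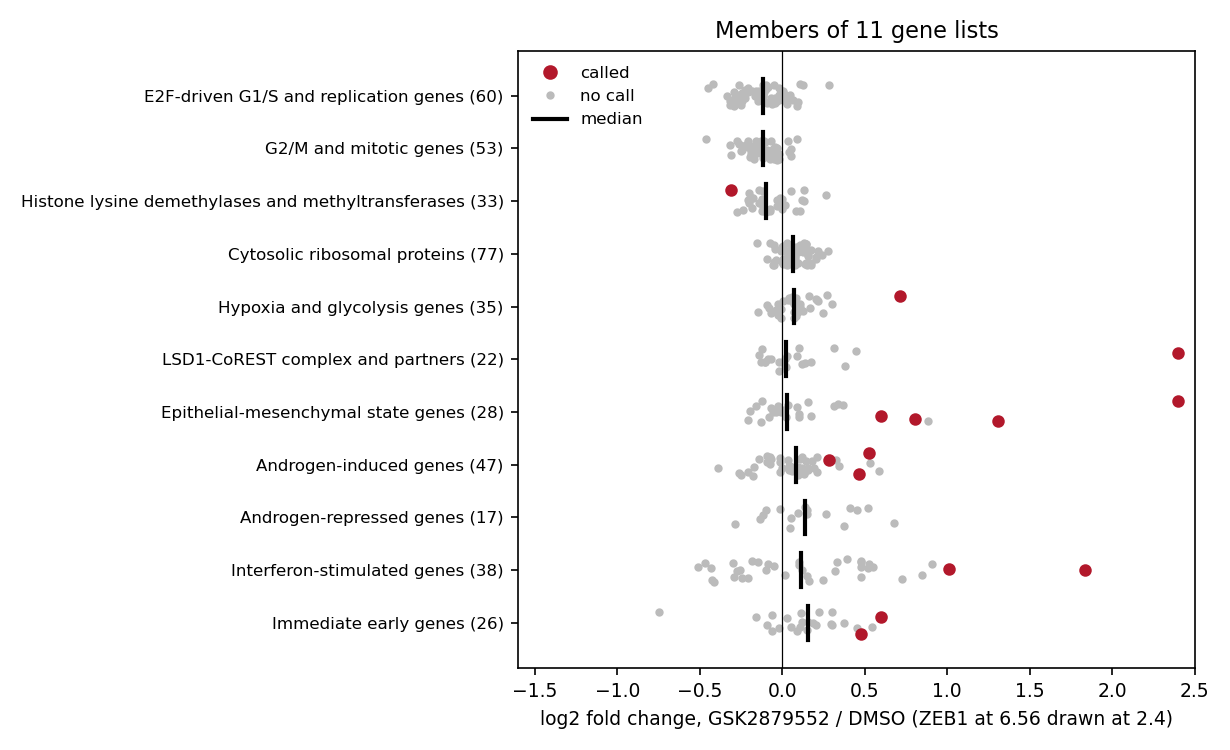
Log2 fold change of GSK2879552 over DMSO for each tested member of 11 gene lists, whose numbers of members are in parentheses. Red points are called genes, grey points are not, and black bars are medians, which lie between -0.12 and 0.15. ZEB1, at 6.56, is drawn at the right edge.

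Protein genes of the mitochondrial genome rose almost as a whole. These genes encode core subunits of the respiratory chain and ATP synthase and are transcribed within the organelle. Of 13, 12 rose and 0 fell, with a median of 0.55, while 0.619% of all genes tested were called up. MT-ND4L had 1005 and 912 CPM with GSK2879552 and 454 and 630 CPM with DMSO (log2 0.82 ± 0.10, adjusted p = 0.000345). MT-ATP8 rose by 0.93 ± 0.16 and MT-CYB by 0.69 ± 0.12. Together the 13 genes took 4.61% and 4.05% of all counts with GSK2879552 and 2.72% and 3.58% with DMSO. The 4 libraries with doxycycline, with or without the inhibitor, lay between 3.99% and 4.41%. Both DMSO libraries without doxycycline were below that range and GSK2879552 replicate 1 was above it. Without DMSO replicate 1, the library with the lowest share, 4 of the 13 were called and their median was 0.34. Without DMSO replicate 2, 12 were called with a median of 0.80. DESeq2 called 4. None of the 65 nuclear genes of the respiratory chain tested by edgeR or DESeq2 was called, with 12 higher and 0 lower without adjustment and a median of 0.04. Without adjustment 1233 of all 18423 genes were higher and 983 lower. With doxycycline, 0 of the 13 mitochondrial genes were called by edgeR and 0 by DESeq2, and the median was -0.12. In LNCaP cells the median ratio of the 12 with enough counts was -0.84 on the log2 scale. Those libraries, 1 per condition, were made with a total RNA kit and the C4-2 libraries with an mRNA kit. The 13 genes took 0.22% of LNCaP counts with GSK2879552 and 0.33% to 0.34% with vehicle. The part of the kit in this difference between lines was not tested. The part of RNA quality or cell handling in the share of mitochondrial counts was not tested.

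**Figure D4:**
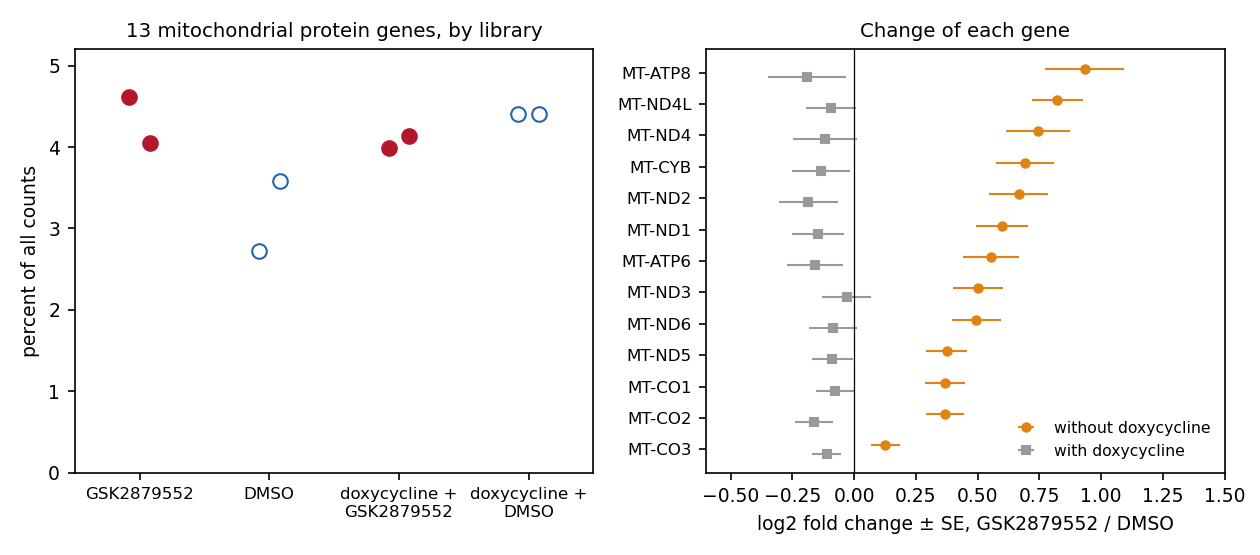
Left, percent of all counts on the 13 mitochondrial protein genes in each of the 8 C4-2 libraries. Filled symbols are GSK2879552 and open symbols DMSO. Right, log2 fold change ± SE of each gene without doxycycline (orange circles) and with it (grey squares). The DMSO libraries without doxycycline, at 2.72% and 3.58%, are below the other 6.

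Most nuclear genes that rose did so again when the hairpin against RB1 had been induced. With doxycycline, 246 genes were called (1.34%), 229 up (1.24%) and 17 down (0.0923%). These libraries are separate from those without doxycycline. Of the 114 genes that rose without doxycycline, 72 also rose with it, which is 63.2% of the 114 and 31.4% of the 229. All 72 were among the 101 nuclear genes, 95 of which were higher with GSK2879552 in both settings. In the cells with doxycycline, 9382 of all 18423 genes tested were higher with GSK2879552 and 9041 lower. The median log2 change of the 101 was 0.73 without and 0.74 with doxycycline. Of the 11 falls, 5 were called again and all 11 had the same sign. AHNAK2 had 27.3 and 24.6 CPM with doxycycline and GSK2879552 and 4.45 and 3.92 CPM with doxycycline and DMSO (log2 2.64 ± 0.13). LIX1L rose by 2.12 ± 0.10, FEZ1 by 2.56 ± 0.18 and OVOL2 by 1.05 ± 0.12 with doxycycline.
The difference between the effects, without minus with doxycycline, was called for 3 genes (0.0163%), all with the more positive effect without doxycycline, while without adjustment 415 differences were above 0 and 464 below. RNA5-8SP6, named as a pseudogene of the 5.8S ribosomal RNA, differed by 1.56 ± 0.19 (adjusted p = 0.00456), and CTD-2328D6.1 by 1.00 ± 0.13 (adjusted p = 0.00456). Reads of RNA5-8SP6 may come from the many copies of its parent, so its value is uncertain. MT-ND4L differed by 0.92 ± 0.14 (adjusted p = 0.039). MT-ND4L lies on the mitochondrial genome, and the name CTD-2328D6.1 does not tell whether that gene is protein-coding. Among genes with the opposite difference none was called by edgeR, while DESeq2 called 2, and PFKFB4, a regulator of glycolysis, came nearest (log2 -0.56 ± 0.09, adjusted p = 0.0737). It had 176 and 185 CPM with GSK2879552 and 163 and 151 CPM with DMSO, and with doxycycline 301 and 281 CPM with GSK2879552 and 172 CPM in both libraries with DMSO. STC2, PPFIA4, EGLN3, PRSS53 and DSP followed with adjusted p-values between 0.207 and 0.54.

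LNCaP cells, the line from which C4-2 derives, gave values at another dose and time from 1 library per condition, without a replicate check. By their labels, the 2 samples of each group are 2 lanes of 1 library name and index. They differed about as much as counting error alone gives and were counted as 1. Of 11955 genes with at least 100 counts, 167 were at least 2-fold higher (1.4%) and 167 lower (1.4%) with GSK2879552 than with vehicle. Of the 114 genes that rose in C4-2 cells, 85 had enough counts, 61 of them were higher in LNCaP and 13 at least 2-fold. Among the 11829 genes measured in both lines, 47.5% were higher in LNCaP with GSK2879552. The counting interval lay above 1 for 47 of the 85 (55.3%), against 25.7% of 11829 genes measured in both lines. Without the mitochondrial genes it did for 46 of 73 (63.0%), whose median log2 ratio was 0.38, against -0.02 over all genes. AHNAK2 had 70.1 CPM with GSK2879552 and 15.6 CPM with vehicle, a ratio of 4.50 (95% interval 3.88 to 5.24). FEZ1 had a ratio of 5.64 (3.39 to 9.91), LIX1L one of 2.47 (2.01 to 3.05), ILDR2 one of 3.42 (2.52 to 4.72) and IFI6 one of 2.05 (1.65 to 2.57). The leading rises of C4-2 cells were not all shared. OVOL2 had 18.4 CPM with GSK2879552 and 16.7 CPM with vehicle in LNCaP cells (1.10, 0.92 to 1.32), and NRG3 had a ratio of 1.10 (0.88 to 1.38). Of the falls, SLC22A3 (0.32, 0.29 to 0.35), MYNN (0.66, 0.53 to 0.82) and MKI67 (0.71, 0.63 to 0.81) had intervals below 1 in LNCaP cells. That makes 3 of the 7 falls with enough counts (42.9%), against 31.6% of the 11829 genes measured in both lines. ZNF460 (1.86, 1.74 to 2.00), KMT2D (1.20, 1.14 to 1.27) and IGF2R (1.12, 1.08 to 1.15) were higher in LNCaP cells, and RAPGEF3 had an interval that includes 1 (0.89, 0.69 to 1.15). KLK3, without a call in C4-2 cells, had 271 CPM with GSK2879552 and 568.5 CPM with vehicle in LNCaP cells (0.48, 0.46 to 0.50).

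**Figure D5:**
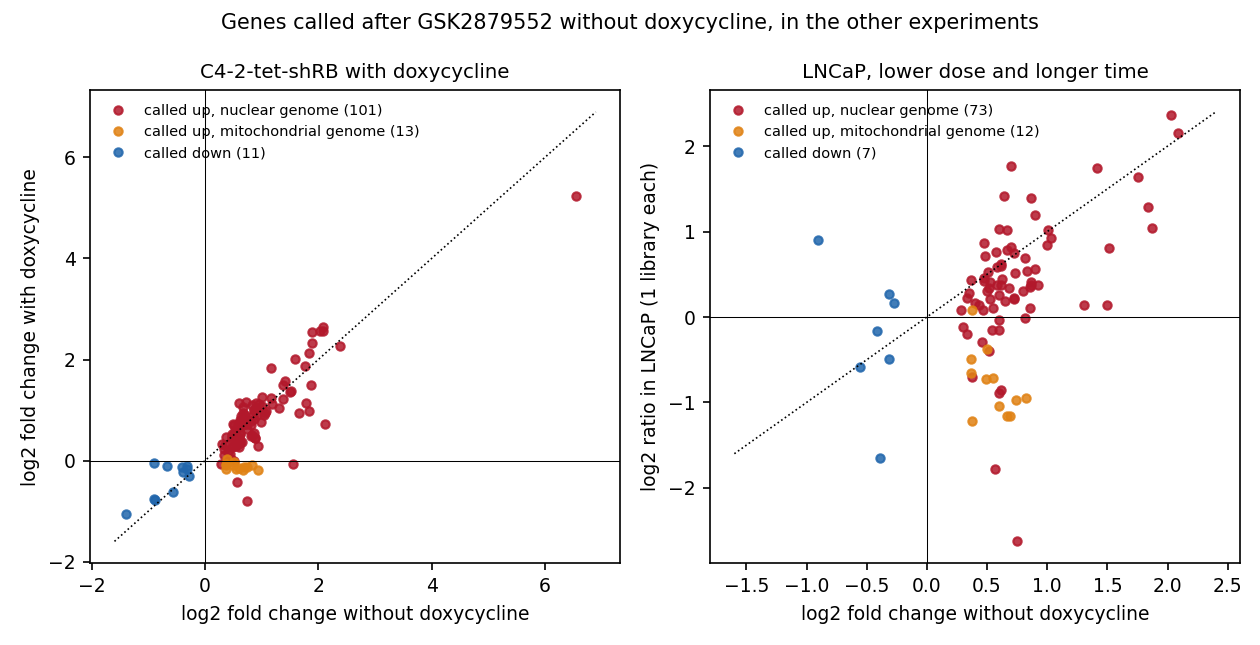
Log2 fold change without doxycycline of the called genes (horizontal axis) against their log2 fold change with doxycycline (left) and their log2 ratio in LNCaP cells where at least 100 counts were available (right). Red points are nuclear genes called up, orange points mitochondrial genes called up and blue points genes called down, and the dotted line marks equal values. Most nuclear rises lie near the line on the left, while most mitochondrial genes lie near or below 0 in both panels.

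Genes that depended on RB1 in VCaP cells were set beside the same comparison. Of 397 tested genes that rose after RB1 siRNA in VCaP cells, 6 rose with GSK2879552 in C4-2 cells (1.51%, against 0.619% of all genes) and 0 fell, with a median of -0.01. Of 341 that fell after RB1 siRNA, 14 rose (4.11%, against the same 0.619%). Of these 12 are mitochondrial protein genes, which leaves ITPR1 and S100A10 as the nuclear members, while 2 fell, KMT2D and MKI67, with a median of 0.01. The genes of these counts are named after their values were seen.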

How the data were processed

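RNA was sequenced with a TruSeq Stranded mRNA kit for the C4-2 libraries described here and for VCaP, and a TruSeq total RNA kit for the DHT and LNCaP libraries, per the labels' protocols. The submitters' processing notes name hg19/GRCh37, featureCounts 1.6.4, STAR 2.7.2 and FastQC 0.11.9. For annotation, strand setting and multiply aligned reads, the choices are not given in the sources used here. Raw counts were deposited per Ensembl gene in 4 tables, whose 30 sample columns each matched a label, leaving 0 unmatched. The members, lists and tests were chosen with earlier results of these data known.

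Counts of the 8 C4-2 libraries (4 groups of 2, 4 residual degrees of freedom) were filtered with filterByExpr, scaled by TMM and tested by quasi-likelihood in edgeR 4.0.16 under R 4.3.3, with p-values adjusted by Benjamini-Hochberg over 18423 genes. The SE was taken as the absolute log2 change over √F. The biological coefficient of variation was 5.79% and the prior degrees of freedom 12.9. Named genes were RB1, KDM1A, KLK3, E2F1 and the LSD1-CoREST list; up to 15 called genes per direction, by size of change, whose groups do not overlap and whose average log2 CPM reaches 1; up to 3 called members of each list per direction; and the 6 genes per direction with the smallest p for the difference by doxycycline. LNCaP and DHT samples with 1 library name and index in 2 lanes, which differed about as much as counting error alone gives, were summed to 1 per group. Their log2 ratios use a prior count of 2, and single ratios are of scaled counts with exact Clopper-Pearson 95% intervals, which cover counting error only. Promoter sequences are from RefSeq tables of GRCh38.p14, matched by Ensembl ID or symbol, and those of OVOL1 and OVOL2 were not used here. The alternatives were RLE size factors, no filter, DESeq2 1.42.0, limma 3.58.1 voom with group weights, the 4 libraries alone, a replicate block and leaving out each library. A crossed replicate block, with the replicate numbers of the GSK2879552 libraries without doxycycline swapped, was added after the data were seen. It is counted among the 15 alternatives. The scripts were tested on simulated data. Some genes of the named rule are given only in ranges or figures. A luminal marker and a motif are not reported here.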

Additional observations from a re-analysis of the deposited data

Results flagged for a closer look

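The effect of GSK2879552 differed between cells without and with doxycycline by an interaction test in 3 genes. For RNA5-8SP6 the effect without minus with doxycycline was 1.56 ± 0.19 on the log2 scale. It had 15.5 and 19.2 CPM with GSK2879552 and 9.52 and 10.9 CPM with DMSO, and with doxycycline 7.68 and 6.99 CPM with GSK2879552 and 13.3 and 12.5 CPM with DMSO, so the effects had opposite signs. For CTD-2328D6.1 it was 1.00 ± 0.13, with 127 and 145 CPM under GSK2879552 and 82.7 and 100.2 CPM under DMSO, and with doxycycline 99.9 and 91.7 CPM under GSK2879552 and 133 and 125 CPM under DMSO. Both calls, by edgeR, ended without DMSO replicate 1 (adjusted p = 0.0545 each) and without the doxycycline and GSK2879552 replicate 2 (adjusted p = 0.0817 each). For MT-ND4L it was 0.92 ± 0.14, and the call ended with DESeq2 (adjusted p = 0.507), with the replicate block (adjusted p = 0.0739) and without any 1 of the 4 doxycycline libraries. RNA5-8SP6 and CTD-2328D6.1 were also compared in LNCaP cells. In LNCaP cells, with 1 library per condition made with a total RNA kit in place of the mRNA kit, both were lower with the inhibitor. RNA5-8SP6 had 10.1 CPM with GSK2879552 and 63.2 CPM with vehicle. CTD-2328D6.1 had 308 CPM with GSK2879552 and 1058 CPM with vehicle. The part of differences between libraries in ribosomal or mitochondrial RNA was not tested.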

How the results depend on the processing

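Against 114 rises without doxycycline, DESeq2 gave 110, voom 95, the 4 libraries alone 90 and RLE 114. The count was 274 without the filter, and 40 to 762 when each library was left out, lowest without DMSO replicate 1 (40), 67 without DMSO replicate 2, and highest without GSK2879552 replicate 1 (352) or 2 (762), which removes the most variable pair from the estimate of the spread. Falls (11) numbered 56 without the filter, 16 with DESeq2, 6 with voom, 3 in the 4 libraries alone and 1 to 973 with a library left out. With the replicate block, 83 rose and 3 fell, and all 86 were among the 125. With doxycycline, rises (229) numbered 542 with voom, 707 in 4 libraries and 75 to 612 with a library left out, and falls (17) numbered 94 without the filter, 10 with DESeq2, 170 with voom, 466 in 4 libraries, 6 with the replicate block and 2 to 350 with a library left out. The difference by doxycycline had 32 genes higher and 7 lower without the filter, 10 and 2 with voom, 2 lower with DESeq2, and 0 to 125 and 0 to 70 with a library left out. Deviations of same-numbered GSK2879552 and DMSO libraries correlated at -0.20 across genes, and the main fit did not take the numbers as pairs. Those of GSK2879552 with the doxycycline groups correlated at -0.25 (DMSO) and -0.33 (GSK2879552). Between groups other than GSK2879552 without doxycycline, the correlations were 0.09, 0.11 and 0.13. Whether the libraries share a replicate effect was not tested. A crossed replicate block was added after seeing the data. It called 443 rises and 284 falls, 550 and 255 with doxycycline, and 28 and 20 in the difference.
The largest and smallest values with a library left out differed in sign for RB1 (-0.15 to 0.39), ZNF516 (-0.15 to 0.34), HDAC2 (-0.024 to 0.077, also -0.019), KDM1A (-0.014 to 0.058), RCOR1 (-0.021 to 0.060, also -0.017), HMG20B (-0.12 to 0.14, also -0.078), ZMYM2 (-0.21 to 0.14, also 0.024) and MTA1 (-0.18 to 0.13), none of which was called. In LNCaP cells 921 genes were at least 2-fold higher and 627 lower at 10 counts or more, and 53 and 69 at 500. The median of genes at least 4-fold lower with DHT was 0.0496. The cause of these shifts was not tested.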
